A study of Mus musculus with 7 samples.

Results

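Interferon-high joint neutrophils are the neutrophils of arthritic mouse joints that carry the most transcripts of 6 interferon-stimulated genes. They were picked cell by cell: the unique molecular identifiers (UMIs, 1 for each captured transcript) of Ifit1, Ifit3, Ifit3b, Isg15, Rsad2 and Irf7 were added, and cells with at least 6 such UMIs were members. Of the 2857 joint neutrophils, 721 were members (25.2%, exact binomial 95% interval 23.7 to 26.9%), 493 held 2 to 5 of these UMIs and were left between the classes, and 1643 held 0 or 1 and formed the interferon-low class. The whole series held 21763 cells, of which 4856 came from the inflammation library.

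Type I interferons act through a receptor made of Ifnar1 and Ifnar2, and their signal reaches interferon-stimulated response elements (ISRE) in the promoters of antiviral genes through a complex that contains Irf9. Interferon gamma uses another receptor, made of Ifngr1 and Ifngr2, and acts mainly on gamma-activated sites (GAS). Many genes answer to both, and neutrophils are known as strong responders to type I interferon.

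Neutrophils were sorted as live CD11b+ Ly6G+ cells from male C57BL/6J mice aged 8 weeks (for arthritic mice, when arthritis was induced) and profiled in droplets with 10X Genomics 3' reagents. In 1 library, antibodies carrying hashtag oligonucleotides marked 5 conditions, each a pool of cells from 3 mice. Arthritis was induced in wild-type mice by serum of K/BxN mice, which spontaneously form arthritogenic antibodies, given on day 0 and day 2, and the cells were taken on day 7 from arthritic leg joints by lavage (K/BxN joint) and from blood (K/BxN blood). The other pools were peritoneal lavage (IL-1β peritoneum) and bronchoalveolar lavage (IL-1β lung) collected 3 h after 25 ng of interleukin-1β was given into the peritoneum or the nose, and blood of mice without treatment (healthy blood).

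As each condition is 1 pool, the joint classes were compared without a test. Levels are UMIs per 1000000 UMIs of a class (CPM), and intervals (95%, exact) cover counting error only, not differences between mice. Members summed to 2720008 UMIs (median 3573 a cell) and interferon-low cells to 5683899 (median 3443). The inflammation library shared 2 cell barcodes with the healthy libraries of the series, 1 with blood of run 1 and 1 with spleen of run 2.

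The neutrophil label was checked on markers outside the rule. All 15 neutrophil markers had UMIs in the members, where they made up 163079 CPM, against 183139 CPM in interferon-low cells, and the median cell carried 137 and 150 such UMIs per 1000. S100a8, a subunit of calprotectin, was at 69003 and 78863 CPM. Monocyte or macrophage markers summed to 730 CPM in members and 556 CPM in interferon-low cells, with 12 of 13 detected in members and Ccr2, the monocyte chemokine receptor, at 0. The difference lay mainly in Ly6c2, which was at 94.5 and 109 CPM in cells with 0 and 1 rule UMIs. In members it was at 206 CPM with 6 to 11 rule UMIs, 218 CPM with 12 to 29 and 544 CPM with at least 30. All 8 NK cell markers were at 0 in members, as were 7 of 10 T cell markers. Of 9 B cell markers 6 were at 0 in members, Cd79a and Ms4a1 among them, and the list summed to 64.0 CPM in members and 40.1 CPM in interferon-low cells, with 79.4 CPM in members with at least 30 rule UMIs. Nearly all of it was Ighm, the immunoglobulin mu heavy chain (62.9 and 38.7 CPM). Its part in the results was not tested. Of 7 plasmacytoid dendritic cell markers, Siglech, Ccr9, Cox6a2 and Klk1 were at 0, and the list summed to 115 CPM against 9.85 CPM, mostly through Bst2, which is itself an interferon-stimulated gene.

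The rule sets a threshold on a range of values, given here as a description. The members' sum of rule UMIs had a median of 17, quartiles of 9 and 40 and a maximum of 295. There were 67 cells at 6 UMIs, just inside the threshold, and 56 cells at 5, just outside it. At the other end 227 members carried at least 30 rule UMIs and 55 carried at least 100, and the 73 cells with the most held 39.7% of all rule UMIs of the members. The rule genes made up 0.893% of the members' UMIs.

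**Figure D1:**
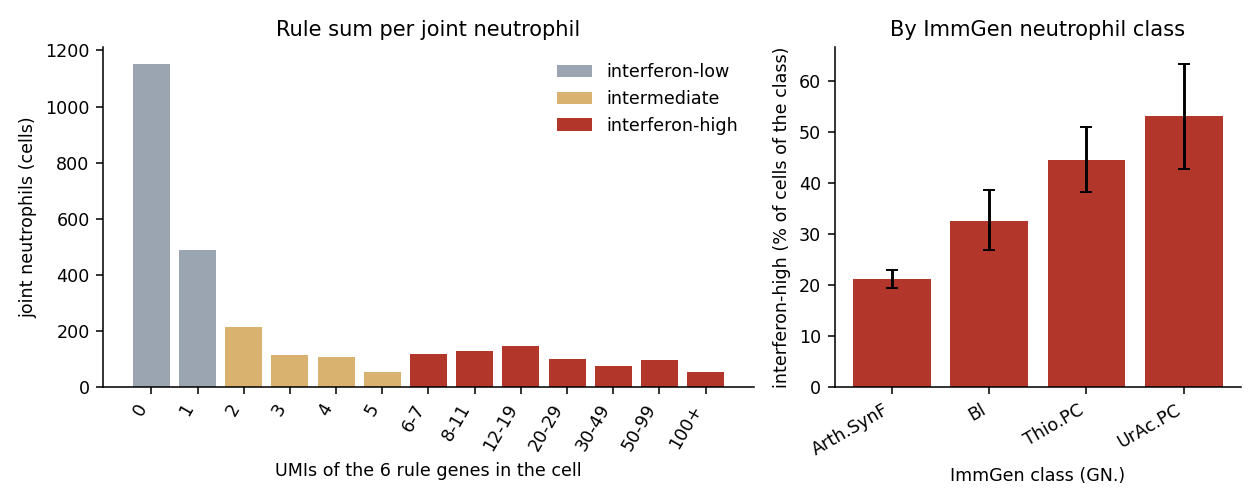
Left, number of joint neutrophils (y axis) by UMIs of the 6 rule genes in the cell (x axis, widening steps), coloured by class. Right, share of cells that were interferon-high in each ImmGen neutrophil class with more than 50 joint cells, with exact binomial 95% intervals. There were 1153 cells at 0 UMIs, 56 at 5, 118 at 6 to 7 and 55 at 100 or more, with no gap at the threshold, and the share was lowest in Arth.SynF cells (21.2%).

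The genes that chose the cells are given as a description. Isg15, a ubiquitin-like modifier, had UMIs in 669 members (92.8%) and stood at 2659 CPM against 34.5 CPM in interferon-low cells. Rsad2, which encodes the antiviral enzyme viperin, had UMIs in 625 members and stood at 3099 against 17.4 CPM. Both genes were thus found in most members. Irf7, the transcription factor that amplifies interferon production, was seen in 460 members (481 against 19.9 CPM). The RNA-binding proteins Ifit1, Ifit3 and Ifit3b were seen in fewer: 355, 292 and 299 members. Ifit3 and Ifit3b are close copies, so reads may have been split between them. All 6 genes were seen together in 168 members, and 56 members reached the threshold through 1 gene alone.

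The authors had matched each cell to an ImmGen reference population by its whole profile, in which interferon-stimulated genes also count. Among joint cells called GN.Arth.SynF, the reference for arthritic synovial fluid, 478 of 2260 were members (21.2%, interval 19.5 to 22.9%). The share was 32.5% in GN.Bl (83 of 255), 44.5% in GN.Thio.PC (109 of 245) and 53.1% in GN.UrAc.PC (51 of 96), the references for blood and for peritoneal cells after thioglycollate and urate crystals. The SynF class held 66.3% of the members and 84.5% of the interferon-low cells.

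Outside the rule genes, 5690 genes had at least 20 UMIs expected in the members at equal levels. Of these, 172 were at least 2-fold higher in members (3.02% of the genes compared) and 18 at least 2-fold lower (0.316%), and 5500 lay between. The median log2 ratio over all genes was -0.04. For 132 of the 172 the whole counting interval lay above 2-fold, and 82 were at least 4-fold higher. All 172 stayed past 2-fold when interferon-low cells were weighted to the members' depth. Through the UMIs of the members alone, 38 of the 172 reached the minimum, so these could only appear as higher. The 18 lower genes rested on few UMIs, and none had an interval wholly below 0.5. Fewer cells with a gene and less of its RNA per cell cannot be told apart in such sums, and shares of cells are given for some genes only.

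**Figure D2:**
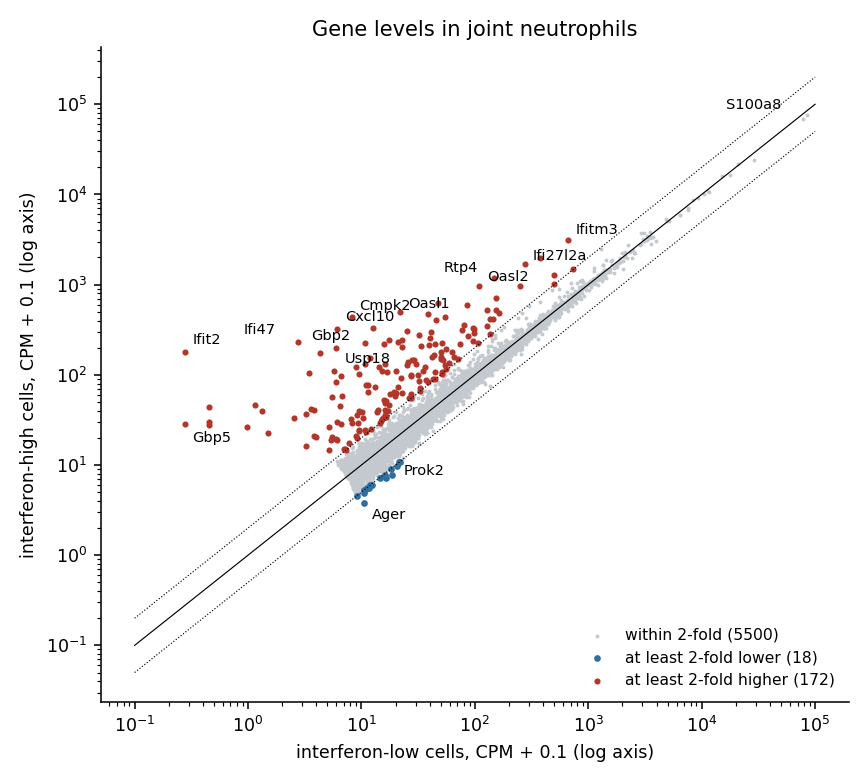
Level of each of 5690 genes in interferon-low (x axis) and interferon-high (y axis) joint neutrophils in CPM + 0.1, both axes logarithmic. The solid line marks equal levels and the dotted lines 2-fold. The 172 genes at least 2-fold higher in members reach far above the upper line, with Ifit2 at 178 against 0.176 CPM, whereas the 18 lower genes lie close to the lower line.

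Antiviral effector genes were higher in members almost throughout. Of 43 listed, 42 were in the table, 39 had a UMI, 34 passed the minimum (27 of them on the interferon-low cells alone) and 33 were at least 2-fold higher, with a median log2 ratio of 2.85 over those that passed. The list without rule genes summed to 11564 CPM in members and 1946 CPM in interferon-low cells. Ifit2, whose protein binds RNA and limits translation, had 484 UMIs in members and 1 in interferon-low cells, a ratio of 1011 with an interval of 181 to 40029.5. Cmpk2, a mitochondrial nucleotide kinase next to Rsad2 on chromosome 12, was at 433 against 8.09 CPM (53.5-fold, 39.8 to 73.4). These levels were near 0 in interferon-low cells. Members of the oligoadenylate synthetase family, which sense double-stranded RNA, were higher by 22.9-fold for Oasl1 (499 against 21.8 CPM), 11.5-fold for Oas1a, 8.76-fold for Oasl2, 8.06-fold for Oas2 and 7.95-fold for Oas3. Gm13822, which lies 882 bases from Oasl1, was 12.5-fold higher.

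Bst2, which tethers budding virus to the cell, was 19.4-fold higher (109 against 5.63 CPM). Herc6, a ligase that attaches Isg15 to proteins in mice, was 41.5-fold higher, and Xaf1, a binding partner of the caspase inhibitor Xiap, 31.3-fold. The ADP-ribosyltransferases Parp14, Parp12, Parp9 and Parp10 were higher by 12.1, 11.7, 6.42 and 3.78-fold. Some effectors had many UMIs in interferon-low cells too: Rtp4 was at 1185 against 147 CPM (8.07-fold), Ifi27l2a at 1707 against 278 CPM (6.13-fold), the exonuclease Isg20 at 597 against 84.8 CPM (7.04-fold) and Ly6e at 969 against 251 CPM (3.86-fold). Trim25, a ubiquitin ligase of the RIG-I pathway, was the passing effector within 2-fold (1.40-fold). Mx1 had 1 UMI in members and none in interferon-low cells and did not pass the minimum.

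Of 17 listed genes of the Ifi200 and Schlafen families, 13 were in the table, 8 passed and 7 were at least 2-fold higher. Ifi204, a DNA-binding Ifi200 protein, was at 623 against 47.2 CPM (13.2-fold), and its relative Mnda had 118 UMIs in members and 2 in interferon-low cells (123-fold, 33.4 to 1029.9). Slfn5 was at 331 against 12.7 CPM (26.1-fold) and Slfn8 at 229.8 against 21.1 CPM (10.9-fold). Slfn4, which was plentiful in both classes, was at 1968 against 377 CPM (5.22-fold). Slfn1 and Slfn2 were higher by 2.57 and 2.07-fold, and Aim2, a DNA sensor of the inflammasome, was within 2-fold (1.17). Among the 4 membrane-bound Ifitm proteins, Ifitm3 was 4.77-fold higher (3149 against 659.9 CPM), Ifitm6 1.77-fold, and Ifitm2 and Ifitm1 had ratios of 0.972 and 0.823.

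Sensors and signalling genes split within their lists. The RNA helicases Ifih1 (MDA5), Dhx58 (LGP2) and Ddx58 (RIG-I) were 13.7, 8.80 and 7.34-fold higher, and the Z-form nucleic acid sensor Zbp1 was 13.7-fold higher, whereas Tlr13, a sensor of bacterial RNA, and the adaptor Myd88 had ratios of 1.04 and 1.30. Of 14 listed sensors 6 passed, 4 of them past 2-fold. Of 16 listed receptors and signalling genes 14 passed and 5 were past 2-fold, among them Stat2, a partner of Irf9 (14.5-fold), Irf9 (4.42-fold), Nmi (4.20-fold) and Irf1 (2.78-fold). The receptor genes themselves differed little, with ratios of 0.993 for Ifnar1, 0.935 for Ifnar2, 0.858 for Ifngr1 and 0.931 for Ifngr2. Among 7 feedback inhibitors that passed, Usp18, which removes Isg15 from proteins and blocks Ifnar2 signalling, was at 201 against 5.81 CPM (34.6-fold, 24.3 to 50.7), Socs1 was 4.04-fold higher and Usp25 2.44-fold, and Socs3 had a ratio of 0.995. All 11 listed interferon genes, Ifnb1 and Ifng among them, were at 0 UMIs in every joint cell, which allows up to 0.291 CPM over the joint pool when 3 counts are taken as the floor.

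GTPases and other genes best known as interferon gamma targets were also higher. Of 18 listed, 13 had a UMI, 9 passed, only 5 of them on the interferon-low cells alone, and all 9 were at least 2-fold higher, with a summed level of 1094 against 79.0 CPM. Ifi47 and Irgm1, immunity-related GTPases that act on vacuoles of intracellular microbes, were at 229.8 against 2.64 CPM (87.1-fold, 52.4 to 157) and 241 against 17.2 CPM (14.0-fold). The guanylate-binding protein Gbp2 was at 222 against 10.7 CPM (20.7-fold, 15.9 to 27.4), and Gbp5, which promotes inflammasome assembly, had 77 UMIs in members and 1 in interferon-low cells (161-fold, 28.0 to 6437).

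MHC class I and its peptide loading machinery showed smaller ratios. Of 20 listed genes 17 passed and 11 were past 2-fold. Among these were the peptide transporter Tap1 (5.42-fold), the immunoproteasome subunits Psmb8 (4.47-fold, 355 against 79.3 CPM) and Psmb9 (3.45-fold), the class I regulator Nlrc5 (4.40-fold) and the non-classical gene H2-T23 (3.43-fold). The classical genes H2-K1 and H2-D1 had ratios of 1.82 and 1.29, and their partner B2m 1.93 (2489.7 against 1290.7 CPM). The list for MHC class II and PD-1 ligands had 6 passing genes, too few for a count of 0 past 2-fold to differ from the background of 3.02%, with H2-Ab1 at 12.5 against 15.8 CPM and Cd274, which encodes PD-L1, at 168 against 98.9 CPM.

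Inflammatory, granule and receptor genes for which neutrophils are known mostly differed by less than 2-fold. None of 20 chemoattractant and cytokine receptors, 19 granule genes and 26 NF-kB, AP-1 and related factors that passed was past 2-fold in either direction, where over all genes 3.02% were higher and 0.316% lower, so that a count of 0 is near this background. The chemokine receptor Cxcr2 was at 1467 and 1385 CPM, the survival factor Mcl1 at 3378 and 3425 CPM, Il1b at 7069 and 7602 CPM, and the ferritin gene Fth1 at 23946 and 28954 CPM. Of 16 chemokine and cytokine genes 3 were past 2-fold: Cxcl10, a ligand of Cxcr3 (320.2 against 5.98 CPM, 53.5-fold, 38.01 to 77.8), Il18bp, the soluble inhibitor of interleukin-18 (3.77-fold), and Ccl2, a monocyte attractant (2.63-fold), whose 232 UMIs in members came from 12 cells. Ccl2 was seen in 2.17% of cells with 0 rule UMIs and 2.04% of those with 1. Among members it was seen in 2.42% with 6 to 11 rule UMIs, 0.407% with 12 to 29 and 2.20% with at least 30. Of 17 apoptosis genes 2 were past 2-fold, Casp1 (3.17-fold) and Casp8 (2.73-fold).

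Of the 30 genes with the largest ratios, those in none of these lists were Fcgr1, the high-affinity IgG receptor, which is also on the monocyte or macrophage list (81 and 2 UMIs, 84.6-fold), Pydc3 (75 and 2 UMIs), Pyhin1 of the Ifi200 family (108 and 7 UMIs), Rhox8 (62 and 8 UMIs), Tuba8, a tubulin whose nearest gene past 2-fold was Usp18 (89 and 14 UMIs), Plac8 (422 and 67 UMIs, 13.2-fold) and Gm13822. The 10 genes with the smallest ratios lay between 0.354 and 0.482. They were Ager, Prok2, Snx8, Scamp1, Hspa9, Ylpm1, Dnajc1, Eml1, Gm15706 and Acvrl1, with 10 to 26 UMIs each in the members, and were in none of the lists. Ager, the receptor of advanced glycation end products, had 10 UMIs against 59.

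Several leading genes lie side by side. On mm10, Ifit2 (chr19:34550550-34576534), Ifit3 (chr19:34583119-34588982), Ifit3b (chr19:34607530-34613403) and Ifit1 (chr19:34640889-34650009) follow each other, and the annotation of Ifit1bl1 overlaps the last 2, so their counts may share reads. Gbp5 (chr3:142496934-142522344), Gbp7 (chr3:142530336-142550151), Gbp3 (chr3:142560016-142573213) and Gbp2 (chr3:142620663-142638008) form another row.

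Promoter sequences were examined because interferon signals are read there through short motifs. Sequences came from RefSeq (GRCm38.p6, the mm10 assembly), from 250 bases before to 50 bases after each annotated start, for 27025 genes. The ISRE was searched as GAAANNGAAA or its reverse complement TTTCNNTTTC, and the GAS as TTCNNNGAA, which is its own reverse complement. Of the 172 genes at least 2-fold higher, 145 had a promoter sequence and 48 of these (33.1%) held an ISRE, against 3.99% of all genes with a promoter and 3.45% of 4463 genes within 2-fold. Among 68 genes at least 4-fold higher the share was 45.6%, and among 25 of the 30 leading genes 56%. The GAS was held by 13.1% of the 145, by 9.55% of all genes and by 7.84% of those within 2-fold. Among the 68 genes at least 4-fold higher its share was 20.6%, and among the 25 leading genes 24%. These are matches of letters, and the motif can overlap itself, as in Isg15. No binding was measured.

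The 250 bases before the start site, 5' to 3' on the gene's strand, of 3 rule genes found to hold ISRE matches and of 3 genes on which the later comparisons turn are given here because they carry these motifs, with ISRE matches in capitals and, for Gbp5, GAS matches as well. They are Isg15 (chr4:156200819-156201068, minus strand), Ifit1 (chr19:34640639-34640888, plus), Rsad2 (chr12:26456453-26456702, minus), Cxcl10 (chr5:92348890-92349139, minus), Gbp2 (chr3:142620413-142620662, plus) and Gbp5 (chr3:142496684-142496933, plus).
Isg15: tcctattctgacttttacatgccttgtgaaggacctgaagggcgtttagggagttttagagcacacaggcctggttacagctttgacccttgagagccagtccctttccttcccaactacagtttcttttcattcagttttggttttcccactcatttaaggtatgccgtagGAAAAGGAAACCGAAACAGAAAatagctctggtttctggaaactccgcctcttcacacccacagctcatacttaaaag
Ifit1: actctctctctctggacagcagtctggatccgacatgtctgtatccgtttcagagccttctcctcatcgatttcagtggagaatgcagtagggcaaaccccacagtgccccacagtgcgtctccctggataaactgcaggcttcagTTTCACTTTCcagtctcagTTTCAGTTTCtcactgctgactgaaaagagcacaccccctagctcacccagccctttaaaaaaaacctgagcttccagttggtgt
Rsad2: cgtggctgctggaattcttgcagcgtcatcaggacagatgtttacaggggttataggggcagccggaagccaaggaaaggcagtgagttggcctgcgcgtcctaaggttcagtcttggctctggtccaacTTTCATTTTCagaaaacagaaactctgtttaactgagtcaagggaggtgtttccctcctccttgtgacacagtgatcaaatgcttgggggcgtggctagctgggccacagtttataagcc
Cxcl10: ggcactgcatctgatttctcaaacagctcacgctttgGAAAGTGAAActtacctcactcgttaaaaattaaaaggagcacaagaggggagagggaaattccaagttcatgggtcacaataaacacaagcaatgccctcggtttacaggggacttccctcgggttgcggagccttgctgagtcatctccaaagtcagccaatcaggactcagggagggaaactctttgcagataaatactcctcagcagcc
Gbp2: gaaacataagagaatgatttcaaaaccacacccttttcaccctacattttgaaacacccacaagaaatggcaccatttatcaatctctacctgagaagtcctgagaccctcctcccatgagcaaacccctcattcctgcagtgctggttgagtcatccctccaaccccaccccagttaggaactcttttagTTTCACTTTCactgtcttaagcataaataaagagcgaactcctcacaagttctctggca
Gbp5: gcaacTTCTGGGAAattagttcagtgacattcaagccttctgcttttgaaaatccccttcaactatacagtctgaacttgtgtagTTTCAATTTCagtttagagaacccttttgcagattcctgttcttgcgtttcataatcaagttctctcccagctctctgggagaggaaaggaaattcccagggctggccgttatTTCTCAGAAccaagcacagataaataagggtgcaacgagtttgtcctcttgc

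Isg15 held 3 overlapping ISRE matches whose first bases lie at -78, -72 and -66 from the start site, and Ifit1 held 2, at -104 and -85. Rsad2, Cxcl10 and Gbp2 held 1 each, at -120, -213 and -59. Gbp5 held an ISRE match at -165 and GAS matches at -245 and -52. The 6 shown were picked for carrying a motif. Irf7, a rule gene, and Cmpk2, Oasl1, Herc6 and Ifi47 held neither motif in these windows, and Ifit2 held no ISRE and 1 GAS match, at -241.

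Members differed among themselves, and genes outside the rule took several courses along the rule sum, of which examples are given here. Cells were set in order as 0, 1, 2 to 5, 6 to 11, 12 to 29 and at least 30 rule UMIs, which held 1153, 490, 493, 248, 246 and 227 cells at median depths of 3423 to 3726 UMIs. Some levels stood higher at each step, including those below the threshold. Rtp4 went from 129 CPM at 0 rule UMIs through 186, 426, 766 and 1047 to 1782 CPM, Oasl2 from 95.8 to 1597 CPM, Ifi27l2a from 232 to 2474 CPM and Slfn4 from 344 to 3193 CPM. Just outside the threshold, at 4 to 5 rule UMIs (162 cells), Oasl2 was at 299.7 CPM, and just inside it, at 6 to 7 (118 cells), at 451 CPM. Ifi27l2a was at 857 and 828 CPM in these ranges.

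For other genes UMIs were gathered in the cells with at least 30 rule UMIs, which were 31.5% of members and held 31.9% of their UMIs. Cxcl10 was between 5.29 and 6.75 CPM in each range below the threshold, at 11.7 and 30.7 CPM in the next 2 and at 958 CPM (894 to 1025) in the last. Ifit2 was at 6.39, 16.4 and 533 CPM in the 3 ranges of members, and Gbp2 at 24.5, 41.7 and 626 CPM. Gbp5 had 0 and 1 UMIs in the first 2 ranges of members and 76 in the last. The last range held 95.5% of the members' Cxcl10 UMIs, 95.7% of Ifit2, 98.7% of Gbp5 and 89.9% of Gbp2, against 60.4% of Slfn5, 66.1% of Usp18, 72.8% of Cmpk2, 77.6% of Herc6 and 87.4% of Ifi47. These shares form a continuum rather than separate sets of genes. Outside the interferon genes, Cxcr2 stood between 1347 and 1571 CPM in all ranges, and Cd14, a receptor for bacterial lipopolysaccharide, was at 3605 CPM in the first and 1911 CPM in the last.

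**Figure D3:**
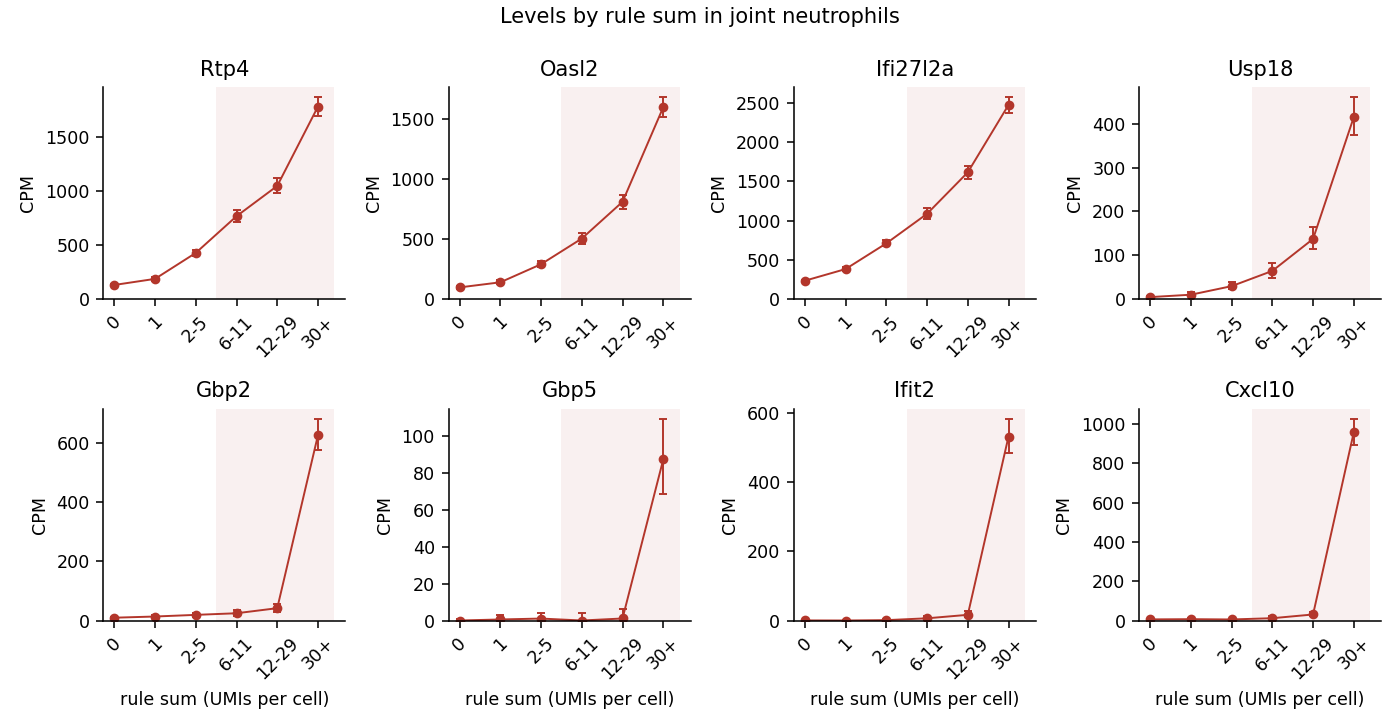
Level in CPM (y axis, a separate linear scale for each gene) of 8 genes outside the rule in joint neutrophils set in order by rule UMIs (x axis), with exact Poisson 95% intervals. Shading marks the interferon-high ranges. Rtp4, Oasl2 and Ifi27l2a stand higher in each range than in the one before, whereas Gbp5, Ifit2 and Cxcl10 stand at most at 30.7 CPM in every range but the last.

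Summed levels of gene lists also differed along the ranges. From 0 to at least 30 rule UMIs, antiviral effectors outside the rule went from 1776 to 19867 CPM, with 3724 CPM at 2 to 5 rule UMIs and 9299 CPM at 12 to 29. Interferon gamma GTPases and targets stood at 70.2 CPM in the first range, 98.4 CPM at 1, 138 CPM at 2 to 5, 267 CPM at 6 to 11, 504 CPM at 12 to 29 and 2606 CPM in the last. MHC class I genes went from 5333 to 12878 CPM. Granule genes stood at 174500 CPM in the first range and 143199 CPM in the last, and S100a8 at 78607 and 62343 CPM. These ranges are of the same score that chose the cells, so the order is a description. Monocyte or macrophage markers were at 522 CPM in the first range and 1001 CPM in the last, where 7 of 13 were detected. Of that list, Ly6c2 went from 94.5 to 544 CPM and Fcgr1 from 0.256 to 82.9 CPM, and the rise lay in these genes. Together, the other markers of the list did not rise. Their part in the result was not tested.

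Cxcl10, Ifit2, Gbp2 and Gbp5 were each found in a minority of members. Cxcl10 had UMIs in 64 members (8.88%), with up to 167 UMIs in a cell, Ifit2 in 102, Gbp2 in 154 and Gbp5 in 31. In healthy blood neutrophils of the same lane, at a median of 2527 UMIs a cell against 3531 in the joint, 1.57% of cells had a Cxcl10 UMI, 0.589% an Ifit2 UMI and 0.393% a Gbp5 UMI. Over all joint cells the shares were 3.64%, 3.64% and 1.19%, in IL-1β peritoneum 18.5%, 0.342% and 11.0%, in IL-1β lung 4.21%, 0 and 5.53%, and in K/BxN blood 1.35%, 0.983% and 0.614%. Cxcl10 and Gbp5 were thus found in a larger share of IL-1β peritoneum cells than of joint cells. Of the 31 members with Gbp5, 30 carried at least 30 rule UMIs. Among these 31, 29 also had Gbp2 (93.5%, against 47.6% of all members with at least 30 rule UMIs), 24 had Ifit2 (77.4% against 38.8%) and 18 had Cxcl10 (58.1% against 19.4%). Of the 64 with Cxcl10, 27 had Ifit2 and 37 did not, 47 had Ifit1 and 35 had Gbp2. Cells with more captured RNA are more likely to show both of any pair. The median depth was 3663 UMIs in members with Cxcl10 and 3561 in those without.

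Cxcl10-bearing members also differed in class. They made up 25.7% of the GN.Thio.PC members (28 of 109), 15.7% of GN.UrAc.PC, 5.02% of GN.Arth.SynF and 4.82% of GN.Bl. Of all members in GN.Thio.PC, 61.5% carried at least 30 rule UMIs, against 22.2% in GN.Arth.SynF. Within GN.Arth.SynF cells alone, the ratio between interferon-high and interferon-low cells was 11.2 for Cxcl10 in place of 53.5, 8.43 for Gbp2 in place of 20.7, 36.6 for Ifi47 in place of 87.1 and 23.2 for Usp18 in place of 34.6. Of the leading genes with a ratio there, 15 moved beyond their counting interval and 6 did not. Among those that moved, Herc6 stood at 22.4 in place of 41.5, Irgm1 at 8.56 in place of 14.0 and Plac8 at 7.37 in place of 13.2. Ifit2 stood at 308 in place of 1011, which lay within its wide counting interval. In this class 115 genes were at least 2-fold higher, 113 of them among the 172. With classes made after thinning each cell to 1000 UMIs, the ratio was 138 for Cxcl10, 37.9 for Gbp2 and 389.7 for Ifit2, and 8 leading genes moved beyond their counting interval and 13 did not. Neutrophil markers made up 135409 CPM in members with Cxcl10 and 165695 CPM in those without, and monocyte or macrophage markers 906 and 713 CPM, with 7 of 13 and 12 of 13 detected. Their part in the result was not tested.

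The same rule applied to the other conditions found fewer cells. Interferon-high cells were 52 of 814 in K/BxN blood (6.39%, 4.81 to 8.29%), 32 of 292 in IL-1β peritoneum (11.0%, 7.62 to 15.1%), 25 of 380 in IL-1β lung (6.58%, 4.30 to 9.56%) and 19 of 509 in healthy blood (3.73%, 2.26 to 5.77%). The joint share of 25.2% lay above all 4 intervals. After thinning each cell to 1000 UMIs and asking for at least 3 rule UMIs, which left out 61 to 155 shallow cells a condition, the shares were 19.6% in the joint, 4.60% in K/BxN blood, 10.8% in IL-1β peritoneum, 6.64% in IL-1β lung and 4.24% in healthy blood. With 1 pool a condition, the spread between mice was not measured.

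**Figure D4:**
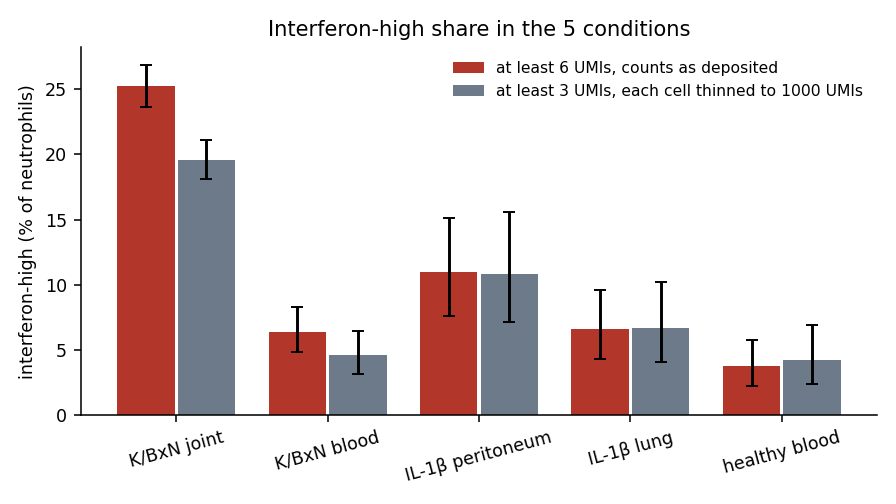
Share of neutrophils that were interferon-high (y axis, %) in each of 5 conditions (x axis), from the counts as deposited with at least 6 rule UMIs and after thinning each cell to 1000 UMIs with at least 3. Error bars are exact binomial 95% intervals for counting error. The joint stands highest on both measures (25.2% and 19.6%).

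The other 4 conditions offered cells from outside the joint, which were split by the same rule, and there the difference between classes was tested. As the rule genes chose these classes too, genes that go with them were bound to differ. The calls list such genes and are not separate support. UMIs were summed per pool and class and fitted by edgeR's quasi-likelihood test with the condition as a block. Of 3316 genes outside the rule, 87 rose in interferon-high cells (2.62%) and 11 fell (0.332%) at a Benjamini-Hochberg adjusted p (FDR) of 0.05. The filter asked for a minimum level in as many sums as a class has. A gene near 0 in all interferon-low sums thus passed through the interferon-high sums alone and could only rise. How many of the genes called were of this kind was not counted. These pools have no replicate of their own, so the test measures how far the difference between classes varied from pool to pool. Without the condition as a block, 18 rose and 0 fell at this FDR, with 96 genes at an unadjusted p under 0.05.

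Most genes of the joint that could be tested were called there too. Of the 172 genes at least 2-fold higher in the joint, 115 were tested in the other conditions, 113 had a positive log2 fold change, 84 were higher in all 4 pools and 77 were called. These 77 are 44.8% of the 172 and 88.5% of the 87. All 17 of the 30 leading joint genes that were tested were called. Of the 18 genes lower in the joint, 1 was tested and it was not called.

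Usp18 rose by 4.56 ± 0.38 (log2, SE, FDR = 6.27e-15). Its level in interferon-high and interferon-low cells was 188 and 8.95 CPM in K/BxN blood, 57.7 and 1.66 CPM in IL-1β peritoneum, 85.9 and 4.003 CPM in IL-1β lung and 185 and 5.58 CPM in healthy blood. The lowest value in interferon-high cells thus lay above the highest in interferon-low cells, and Usp18 passed the filter through its interferon-high sums alone. The interferon-high sums held 138725 UMIs of all genes in IL-1β peritoneum, 93123 in IL-1β lung and 54041 in healthy blood. Usp18 levels there rest on few UMIs. Rtp4 rose by 2.52 ± 0.16 (FDR = 5.51e-20), with 578, 670.4, 655 and 648 CPM in interferon-high cells of these pools and 143, 111, 86.1 and 87.0 CPM in interferon-low cells, and Slfn5 by 4.20 ± 0.31 (FDR = 2.52e-17). Ifitm3 rose by 1.45 ± 0.13 (FDR = 4.65e-14) and Tap1 by 1.78 ± 0.26 (FDR = 2.82e-07).

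By list, 23 of 25 tested antiviral effectors, 6 of 7 tested interferon gamma GTPases and targets and 9 of 14 tested MHC class I genes rose in these pools. None of the 20 tested receptor genes was called, which is near the background of 2.62% higher and 0.332% lower. Genes past 2-fold in the joint but not called in the other pools included Irf1 (0.24 ± 0.20, FDR = 0.868), Nmi (1.33 ± 0.43, FDR = 0.0896), Slfn2 and Psme1. Irf1, a factor that acts early after interferon gamma, was at 146 against 52.4 CPM in the joint, but at 188 against 178 CPM in K/BxN blood and 223 against 234 CPM in IL-1β peritoneum, with ratios of 2.38 in IL-1β lung and 1.21 in healthy blood. Whether the difference between classes itself differed between the joint and other pools could not be tested with 1 joint pool.

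**Figure D5:**
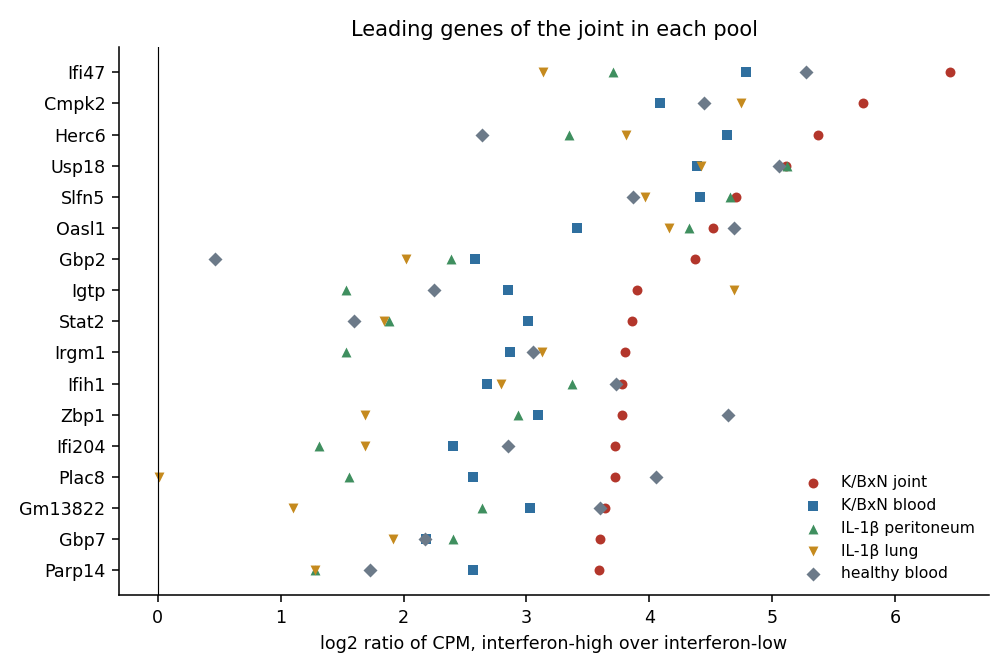
Log2 ratio of CPM in interferon-high over interferon-low cells (x axis) for the 17 leading joint genes that were tested in the other conditions (y axis, in the order of their joint ratio), 1 symbol for each pool, the joint included (circles). A pool with 0 UMIs in a class has no symbol, such as Cmpk2 in IL-1β peritoneum. All drawn symbols lie right of 0 except that of Plac8 in IL-1β lung, which lies at 0, and Gbp2 in healthy blood (ratio 1.38) comes next.

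Cxcl10, Ifit2, Gbp5 and Fcgr1 did not pass the filter of the test across pools, so their values are given without one. Cxcl10 was at 320.2 against 5.98 CPM in the joint, at 1521 against 361 CPM in IL-1β peritoneum (211 and 218 UMIs) and at 859 against 8.01 CPM in IL-1β lung (80 and 8 UMIs), but had 0 UMIs in interferon-high cells of K/BxN blood and healthy blood, which held 9 and 6 UMIs in interferon-low cells. Ifit2 had 18 UMIs in 52 interferon-high cells of K/BxN blood, 3 in IL-1β peritoneum and 0 in IL-1β lung and healthy blood. Gbp5 was at 281 against 41.4 CPM in IL-1β peritoneum and 172 against 16.0 CPM in IL-1β lung. Fcgr1 had 0 to 2 UMIs in the interferon-high cells of each other pool, too few to compare with its 29.8 CPM in the joint. With 19 to 52 interferon-high cells a pool, small levels of these genes were not detectable at this depth.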

How the data were processed

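Per the labels, reads were processed with Cell Ranger against mm10. The deposited table of the inflammation library holds the authors' UMI counts per gene and cell (16390439 UMIs, 4856 cells, 28692 genes listed, 13726 with a UMI), without normalization. The authors demultiplexed the hashtags, removed hashtag doublets and deposited condition and ImmGen class per cell, and 4852 cells of class GN were used. No doublet caller or correction for free RNA was run. Free RNA and doublets within a condition can therefore add UMIs to either class.

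The members and gene lists were chosen with earlier results of these data known. UMIs were summed per class and divided by the class total (CPM). Genes needed 20 UMIs expected in members at equal levels, from the pooled level of both classes. Ratios have exact conditional binomial intervals, shares exact Clopper-Pearson intervals and levels exact Poisson intervals. Named genes are the 30 with the largest and 10 with the smallest ratios past 2-fold and members of the lists. In the other 4 conditions, sums per pool and class were fitted in edgeR 4.0.16 (R 4.3.3, quasi-likelihood, TMM, filterByExpr, condition as block, Benjamini-Hochberg FDR 0.05). This block joins classes from the same pool. DESeq2 1.42.0 was an alternative. Scripts were tested on simulated data. Python 3.11.15 with numpy 2.4.6, scipy 1.17.1 and pandas 2.3.3 was used. Alternatives changed the rule, the threshold, the minimum, depth matching, the block and the pools included. Values of the healthy libraries entered no comparison. Only their barcodes were read. Results for some listed genes are not reported here, though they stay in the counts.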

Additional observations from a re-analysis of the deposited data

How the results depend on the processing

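Thresholds and rule genes set the size of the class. The joint share was 30.9% (883 cells) at 4 rule UMIs and 18.8% (537 cells) at 10. With 5 rule genes and a threshold of 5 it was 26.9% without Ifit1, 27.0% without Ifit3 and 27.0% without Ifit3b, 19.1% without Isg15 and 21.8% without Rsad2. After thinning it was 19.6% at 3 UMIs and 11.6% at 6. In K/BxN blood, IL-1β peritoneum, IL-1β lung and healthy blood the shares were 10.8%, 15.4%, 10.8% and 7.27% at 4 UMIs and 3.07%, 7.19%, 3.16% and 1.77% at 10, and K/BxN blood stood at 4.60% after thinning. At these thresholds and after thinning the joint share was the highest of the 5 conditions.

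Counts of lower genes in the joint moved more than counts of higher genes. In place of 18, there were 29 at a threshold of 10, 31 in thinned classes, 34 within GN.Arth.SynF, 253 with a minimum of 5 expected UMIs (315 higher in place of 172) and 0 with a minimum of 50. Of the 18, 3 were shared at a threshold of 4, 7 at 10 and 0 in thinned classes, against 147, 159 and 130 of the 172. At a threshold of 10, 2 Ifitm genes were higher and 1 granule gene was lower. The cause was not tested.

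In the other conditions the number of genes that rose was 18 without the block and 74 to 89 when each pool was left out in turn, in place of 87, and the number that fell was 6 to 14 (6 without healthy blood), in place of 11. It was 33 without a filter on low counts, 23 at a threshold of 4, 0 without the block and 0 by DESeq2, which called 78 higher and had 193 genes at an unadjusted p under 0.05. Among named genes no value changed direction. Without the block 8 lost their call, Ifi204, Zbp1, Gbp2, Plac8, Gm13822, Stat2, Irgm1 and Parp14, and of these Stat2 also lost it without K/BxN blood (FDR = 0.0905) and Plac8 by DESeq2 (adjusted p = 0.497). The test in the other conditions is paired by pool through the block. The shared run numbers in the labels belong to the healthy libraries, whose pairing was not analysed here. Beyond the block by pool, no paired analysis was possible because the pools compared carry no run numbers.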

Other observations

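In the other 4 conditions, the 11 genes that fell in interferon-high cells by edgeR's quasi-likelihood test (FDR 0.05) were BC100530, Bcl2a1a, Ccl4, Cd63, Gm20186, Gm5483, Igsf6, Rbm25, Zfp516, mt-Atp6 and mt-Co3. None was past 2-fold in the joint, where their ratios lay between 0.799 and 1.28. In each of the 4 pools interferon-low cells had a lower median depth and a higher median mitochondrial share, such as 0.347% against 0.244% in K/BxN blood. With interferon-low cells weighted to the depth of interferon-high cells, 82 genes rose and 10 fell. The part of the mitochondrial share was not tested. Ccl4, a chemokine of activated myeloid cells, fell by 0.93 ± 0.26 on the log2 scale (FDR = 0.0262), with a ratio of 0.139 in IL-1β lung and 1.33 in IL-1β peritoneum. Ly6g, the marker by which the cells were sorted, rose by 0.90 ± 0.20 (FDR = 0.00188).

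Plac8 differed in its ratio from pool to pool. It was 13.2 in the joint, 5.91 in K/BxN blood, 2.94 in IL-1β peritoneum, 1.00 in IL-1β lung and 16.6 in healthy blood. In IL-1β lung its level was 773 CPM in interferon-high and 769.7 CPM in interferon-low cells.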
